A study of Mus musculus with 8 samples.

Results

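The genes described here are 10 genes of the actin cytoskeleton and the contractile apparatus, out of 54658 gene symbols counted by RNA-Seq in primary murine articular chondrocytes. They are the cytoplasmic actins Actb and Actg1, the smooth muscle actin Acta2, the tropomyosins Tpm1 and Tpm2, the thin filament proteins Tagln and Cnn1, the myosin light chain Myl9, the transcription factor Srf and the adhesion protein Pgm5. They were found by their symbols, and the set was chosen on values of the same contrast that is described, with Pgm5 included for how far it lay below vehicle. Their differences between IL-1β and vehicle are therefore given as a description, with standard errors and no p-value. At the level of mRNA, 7 of the 10 genes were lower in every IL-1β sample than in every vehicle sample, from Pgm5 at 7.20% of its vehicle level to Tpm1 at 79.1%. Over all 14404 genes tested, 18.2% were lower and 18.7% higher without overlap. Srf overlapped between the groups, and Tagln and Cnn1 were close to the limit of counting in both.

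The chondrocytes were isolated from femoral heads of wild-type mice (age, 3 weeks) and cultured in multi-well plates. The paper names a serum-containing medium for murine cells after transfection and does not state the medium of these samples. RNA was taken from 4 samples given IL-1β at 1 ng/mL for 24 h and from 4 samples given vehicle for the same time. The labels do not say whether the 4 samples of a group came from separate cultures or animals, so each p-value measures only the spread between these samples, which may be technical. Totals ranged from 10992355 to 17456063 counts per sample, at which 3 counts correspond to 0.173 to 0.270 CPM (counts scaled to a common library size, with TMM factors of 0.984 to 1.01). All 9 chondrocyte markers examined, Col2a1, Acan and Sox9 among them, were detected, with vehicle means from 8.47 CPM (Matn3) to 11191 CPM (Col2a1). Their summed level was 14737 to 15313 CPM in vehicle samples against 3703 to 4073 CPM in IL-1β samples, most of it from Col2a1. All 9 fell (adjusted p-values under 0.05, edgeR's quasi-likelihood test). In bulk RNA, fewer cells of a type and less RNA per cell cannot be told apart.

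Actin monomers assemble into filaments, which tropomyosins coat and stabilize and which non-muscle or smooth muscle myosin pulls on to give contractile tension. The pool of free actin monomers holds back the MRTF cofactors of SRF, a transcription factor that binds a short AT-rich element called the CArG box in front of many actin and contractile genes. In cultured chondrocytes, a spread shape with actin stress fibers is known to go with loss of the cartilage phenotype.

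The promoter sequences of the genes are shown for this element, since SRF is itself one of the 10 genes and binds it. Promoter windows of RefSeq (GRCm38.p6, from 250 bases before to 50 bases after each gene start) were matched to 8 of the 10 symbols. Actb and Tagln were not matched. An exact CArG box on either strand lay in 3 of the 8 windows, those of Srf, Actg1 and Myl9, and in 1.63% of the 32851 windows of all genes. The stretches below run 5′ to 3′ on the strand of the gene and end before its annotated first exon, with each exact CArG box in capitals.
Srf, chr17:46556183-46556292, minus strand: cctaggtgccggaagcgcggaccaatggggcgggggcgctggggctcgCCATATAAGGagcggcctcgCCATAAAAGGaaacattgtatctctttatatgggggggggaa
Actg1, chr11:120348546-120348635, minus strand: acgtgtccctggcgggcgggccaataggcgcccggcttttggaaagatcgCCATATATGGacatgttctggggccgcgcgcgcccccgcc
Myl9, chr2:156775264-156775393, plus strand: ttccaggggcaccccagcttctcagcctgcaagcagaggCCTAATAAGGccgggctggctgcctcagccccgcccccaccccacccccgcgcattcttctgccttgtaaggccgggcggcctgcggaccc
The Srf window held 2 exact boxes, which began 82 and 62 bases before the gene start and were separated by 10 bases. Only 6 of the 32851 windows (0.0183%) held 2 or more. The box of Actg1 began 90 bases before the start and that of Myl9 161 bases before it. With at most 1 base different from the CArG box, 5 of the 8 windows held a match, as did 21.1% of all windows, and the added genes were Acta2 and Tpm1. The Acta2 match that lies 84 bases before the RefSeq start is shown in capitals in this stretch of 30 bases, which lies inside the longer Acta2 gene that GENCODE annotates.
Acta2, chr19:34255438-34255467, minus strand: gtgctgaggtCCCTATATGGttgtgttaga
The MCAT element CATTCC, which TEAD factors bind, was found on either strand in the windows of Acta2 and Tpm1 and in 14.7% of all windows. None of these searches found a match in the windows of Tpm2, Cnn1 and Pgm5. A match to a motif is a property of the sequence and shows no binding.

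Actb (chr5:142903115-142906754, minus strand, GRCm38), which encodes β-actin, was the most abundant of the genes. Its level was 4711, 5074, 4992 and 4824 CPM in vehicle replicates 1 to 4 and 3487, 3752, 4107 and 3912 CPM in IL-1β replicates 1 to 4. The highest IL-1β sample lay below the lowest vehicle sample. The means were 4900 ± 164 CPM and 3815 ± 262 CPM, respectively (SD, n = 4), a log2 fold change of -0.36 (SE 0.034), or 77.8% of vehicle. Of the 50-base stretches of its exons, 14.2% also occur in exons of other genes, 9.57% in Lrrc58, whose level was 394 ± 6.02 CPM without and 383 ± 8.98 CPM after IL-1β.

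Actg1 (chr11:120345690-120348542, minus strand), the other cytoplasmic actin, was lower by more. It was measured at 832, 908, 903 and 918 CPM in vehicle replicates 1 to 4 and at 474, 500.1, 528 and 506 CPM in IL-1β replicates 1 to 4, with a wide gap between the groups. The log2 fold change was -0.83 (SE 0.035), which left 56.4% of the vehicle level. Its counts are less certain than those of the other members, since 56.7% of its 50-base stretches occur in other genes, 51.1% in Gm12715, a processed pseudogene. Gm12715 was counted at 22.2 ± 3.27 CPM in vehicle samples and 13.6 ± 1.14 CPM in IL-1β samples, a difference of -0.69 on the log2 scale (SE 0.090).

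Acta2 (chr19:34241090-34255590, minus strand) encodes the smooth muscle α-actin that marks myofibroblasts and stress fibers. It was counted at 225, 248, 205 and 236 reads in vehicle replicates 1 to 4 and at 35, 51, 64 and 46 reads in IL-1β replicates 1 to 4. As levels, these were 13.0, 14.3, 14.6 and 15.5 CPM with vehicle against 3.15, 3.68, 3.801 and 3.26 CPM with IL-1β. No IL-1β sample came near the vehicle range, and the log2 fold change was -2.03 (SE 0.11), or 24.5% of vehicle. It was the 59th lowest log2 fold change among the 14404 genes tested.

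The actins of striated and visceral muscle were near the limit of counting. Acta1, the skeletal muscle actin, had 15, 15, 12 and 10 reads with vehicle and 3, 3, 9 and 3 reads with IL-1β. Actc1, the cardiac actin, had 1 read in IL-1β replicate 1 and 0 in the other 7 samples. Actg2, the enteric smooth muscle actin, had 0 to 2 reads in 7 samples and 9 reads in vehicle replicate 4.

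Levels of different genes were compared only after division by the exon length listed beside the counts, as TPM (length-corrected levels with the same sum in every sample). The 6 actins summed to 6081 ± 253 TPM with vehicle and 4370 ± 171 TPM with IL-1β (SD, n = 4). Actb made up 84.2% ± 0.450 of this sum with vehicle and 88.2% ± 0.269 with IL-1β. The share of Actg1 was 15.1 to 16.0% in the vehicle samples and 11.5 to 12.0% in the IL-1β samples. The share of Acta2 was 0.350 to 0.404% with vehicle and 0.111 to 0.130% with IL-1β. In each of these shares the groups stood apart, with Actb taking more of the actin mRNA and both other actins less. The shares were not corrected for the sequence that Actg1 and Actb have in common with other genes. They also rest on the listed lengths, and Acta2 is listed at 1781 bases where its GENCODE exons total 2196. The ratio of Actg1 to Actb was 0.183 ± 0.0060 with vehicle and 0.133 ± 0.0035 with IL-1β.

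**Figure D1:**
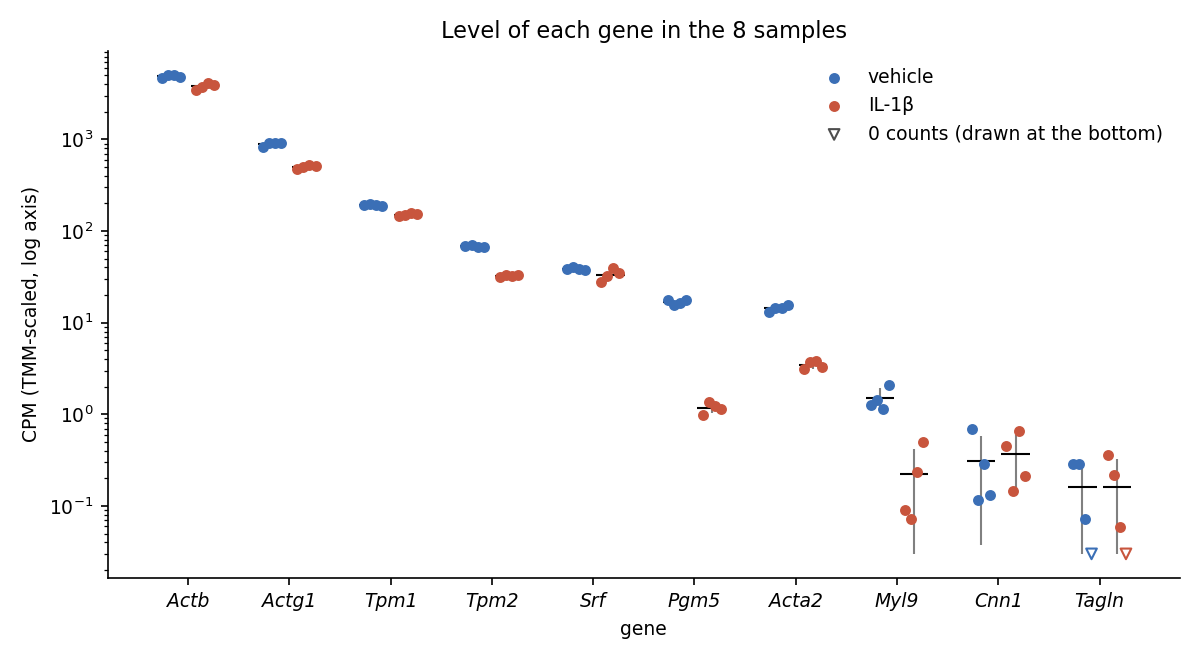
Level of the 10 genes in each sample, as TMM-scaled CPM on a log axis (points, 4 vehicle and 4 IL-1β samples per gene in the order of their replicate numbers; black bars, mean; grey lines, SD, cut at the bottom of the axis; triangles, samples with 0 counts). From Actb at 4900 CPM with vehicle down to Myl9 at 1.49 CPM, 7 genes show separate groups, Srf overlaps, and Cnn1 and Tagln lie between 0 and 0.692 CPM in both groups.

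The tropomyosins differed from each other in size of change. Tpm1 (chr9:67022590-67049406, minus strand) was measured at 191, 195, 192 and 188 CPM in vehicle replicates 1 to 4 and at 147, 149, 157 and 153 CPM in IL-1β replicates 1 to 4. The groups did not overlap, and the log2 fold change was -0.34 (SE 0.030). Tpm2 (chr4:43514711-43523765, minus strand), at 68.2, 70.8, 67.1 and 66.6 CPM with vehicle, had 31.5, 32.9, 32.5 and 33.0 CPM with IL-1β. Its log2 fold change was -1.07 (SE 0.042), or 47.6% of vehicle. Per length, the ratio of Tpm2 to Tpm1 was 0.794 ± 0.012 with vehicle and 0.479 ± 0.013 with IL-1β (SD, n = 4), and the highest IL-1β sample (0.492) lay well below the lowest vehicle sample (0.780). No 50-base stretch of either gene occurs in another gene. These values sum all isoforms of a gene, so the muscle and non-muscle splice forms of Tpm1 and Tpm2 were not separated.

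**Figure D2:**
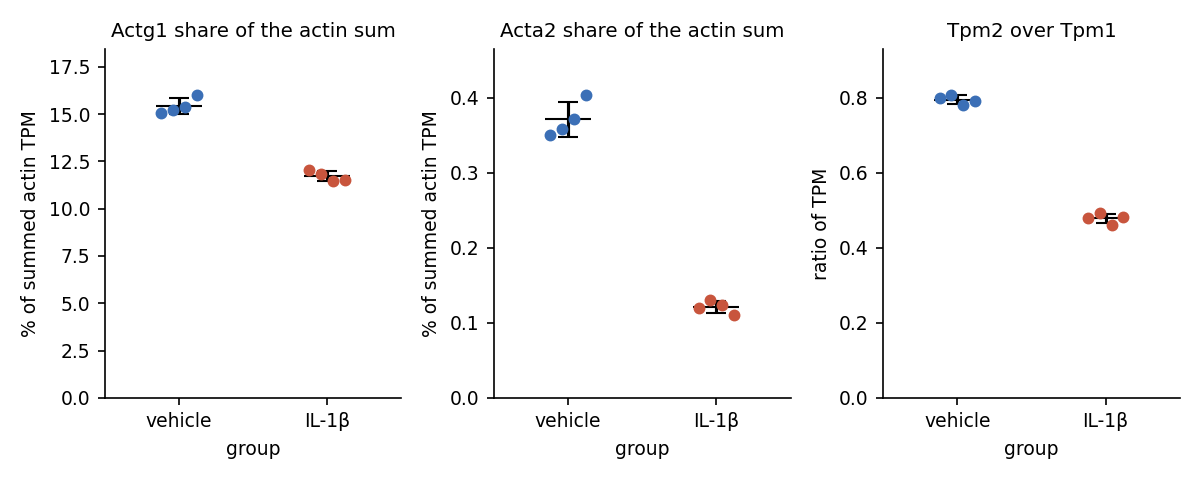
Share of Actg1 and of Acta2 in the summed TPM of 6 actins (left and middle, %) and ratio of Tpm2 to Tpm1 TPM (right) in each sample (points; bars, mean ± SD, n = 4; all axes start at 0). Actg1 went from 15.4 to 11.7%, Acta2 from 0.371 to 0.121% and the tropomyosin ratio from 0.794 to 0.479 between vehicle and IL-1β, with no overlap in any panel.

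Myl9 (chr2:156775420-156781658, plus strand) encodes a regulatory light chain of myosin II, whose phosphorylation switches on contraction. It was a low gene, with 22, 25, 16 and 32 reads in vehicle replicates 1 to 4 and 1, 1, 4 and 7 reads in IL-1β replicates 1 to 4. All IL-1β samples were below all vehicle samples, at 0.224 ± 0.196 against 1.49 ± 0.428 CPM (SD, n = 4). The fitted log2 fold change of -2.64 (SE 0.40) rests on 13 reads in the IL-1β group and is uncertain in size. Without IL-1β replicate 4 it was -3.30, and with any other single sample left out it lay between -2.73 and -2.35.

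Tagln and Cnn1, which encode transgelin and calponin and are markers of differentiated smooth muscle, did not pass the filter of a CPM above 1 in at least 4 samples. Tagln (chr9:45929619-45936058, minus strand) had 5, 5, 1 and 0 reads with vehicle and 4, 3, 1 and 0 reads with IL-1β. In addition, 67.9% of its exon bases are also exon bases of Gm48529 or Pcsk7 on the opposite strand, and the strand setting of the counting is not given in the sources used here. Cnn1 (chr9:22099216-22109630, plus strand) had 12, 2, 4 and 2 reads with vehicle and 5, 2, 11 and 3 reads with IL-1β. The groups overlapped in both genes, and a difference was not detectable at this depth.

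Srf (chr17:46548329-46556175, minus strand), whose promoter stretch above carries a pair of CArG boxes, changed little. It was measured at 38.5, 40.96, 38.3 and 37.6 CPM in vehicle replicates 1 to 4 and at 27.7, 32.2, 39.0 and 34.7 CPM in IL-1β replicates 1 to 4. IL-1β replicate 3 lay within the vehicle range and the other 3 IL-1β samples below it. The log2 fold change was -0.20 (SE 0.066), with the widest spread relative to level among the abundant members, since the coefficient of variation was 14.2% in the IL-1β group and 3.79% in the vehicle group. Counting error alone would give 4.59% and 4.01%. The value was -0.13 without IL-1β replicate 1 and -0.29 without IL-1β replicate 3.

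Pgm5 (chr19:24683016-24861855, minus strand) belongs by sequence to the phosphoglucomutases, but its protein is known as a partner of dystrophin and utrophin at actin-anchoring junctions. It was counted at 303, 268, 229 and 270 reads in vehicle replicates 1 to 4 and at 11, 19, 21 and 16 reads in IL-1β replicates 1 to 4. Its level went from 16.8 ± 1.05 to 1.19 ± 0.162 CPM (SD, n = 4), and the groups were far apart. The log2 fold change of -3.80 (SE 0.13) was the 3rd lowest of 14404 genes, the property for which the gene was included.

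Of the 10 genes, 8 passed the filter on low counts, and all 8 had a log2 fold change below 0. Of these, 7 were lower without overlap between the groups, against 18.2% of all 14404 genes tested (18.7% were higher without overlap). With a log2 fold change below -1 and an adjusted p-value under 0.05, the limits for a differentially expressed gene (DEG), there were 4, namely Acta2, Tpm2, Myl9 and Pgm5. Over all genes 2.35% were such DEGs, and 2.86% were DEGs above 1. The median log2 fold change of the 8 was -0.95, beside -0.0012 over all genes tested. Since the genes were chosen with these values in view, nothing is read from these counts.

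**Figure D3:**
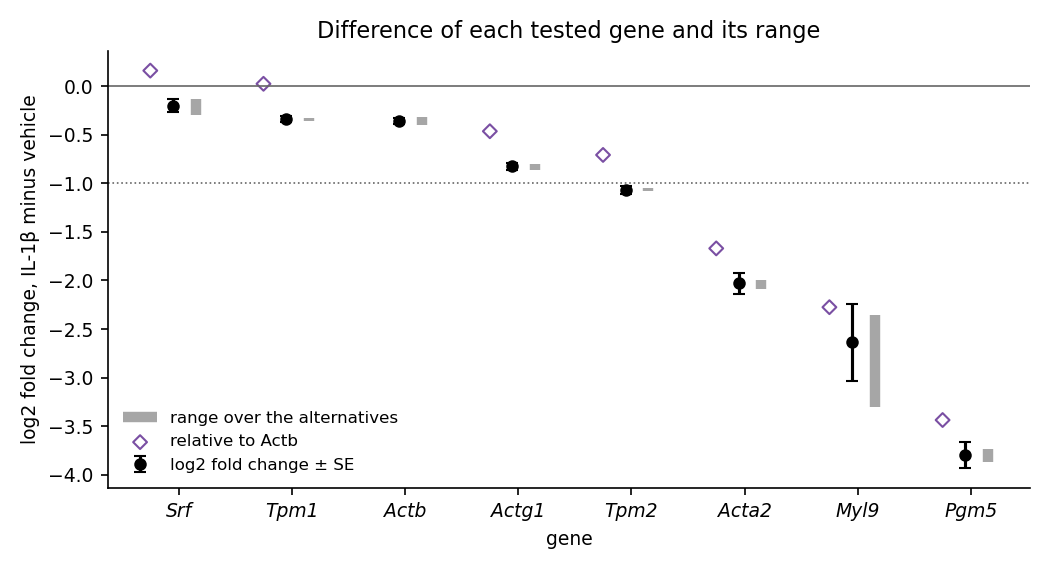
Log2 fold change of the 8 tested genes, IL-1β minus vehicle (black points ± SE from edgeR's fit over 14404 genes), with the range over other scalings, filters, models and sample sets (grey bars) and the value relative to Actb (purple diamonds). The black points run from -0.20 (Srf) to -3.80 (Pgm5), the dotted line marks -1, and relative to Actb the diamonds of Srf and Tpm1 lie above 0.

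Actb is a common reference gene for qPCR, so the differences were also expressed relative to it, a scale chosen after the data were seen. On this scale Acta2 was at -1.67, Myl9 at -2.28, Tpm2 at -0.71, Actg1 at -0.46 and Pgm5 at -3.44 (log2). The sign turned for 2 genes, with Tpm1 at 0.024 and Srf at 0.16. No other scaling tried, with DESeq2's size factors or the total count of each library in place of TMM, turned a sign.

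The order of the levels, as mean TPM, was Actb, Actg1, Tpm1, Tpm2, Srf, Acta2, Pgm5, Myl9, Cnn1 and Tagln with vehicle. Actb, at 5120 ± 230 TPM, ranked 16th among all symbols and Actg1, at 937 ± 31.7 TPM, ranked 96th. All neighbours in this order were apart in all 4 samples except Cnn1 and Tagln, whose ranges overlapped. With IL-1β, Srf at 31.2 ± 3.62 TPM stood level with Tpm2 at 30.2 ± 0.632 TPM, and their ranges overlapped. Below Acta2 at 5.28 ± 0.427 TPM, the ranges of Pgm5, Myl9, Cnn1 and Tagln overlapped from each to the next.

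Within the groups, some of the genes moved together from sample to sample. Deviations of log2(CPM + 0.5) from the group mean had a Pearson r of 0.94 between Actb and Srf, 0.92 between Actb and Tpm1, 0.94 between Srf and Tpm1, 0.85 between Actg1 and Acta2 and 0.84 between Actb and Actg1 (n = 8 samples from the same libraries, given as a description). Between Tpm2 and Acta2 r was 0.010, and between Pgm5 and Tpm1 it was 0.023. Tagln, with few reads, had a negative r with Myl9 (-0.73), Actg1 (-0.71), Actb (-0.56), Acta2 (-0.53), Srf (-0.48), Pgm5 (-0.35) and Tpm1 (-0.30). Its r was 0.23 with Cnn1 and 0.13 with Tpm2. The deviations also went with library size, with an r against the log2 total count of 0.91 for Srf, 0.82 for Tpm1, 0.74 for Actb, 0.65 for Tpm2, 0.43 for Pgm5 and 0.32 for Acta2. IL-1β replicate 1, the smallest library, had the lowest Actb, Actg1, Acta2, Tpm1, Tpm2, Srf and Pgm5 of its group, and IL-1β replicate 3, the largest, had the highest Actb, Actg1, Acta2, Tpm1 and Srf. The share of counts taken by Gm26917, which was 13.2 to 13.9% in vehicle samples and 13.8 to 14.6% in IL-1β samples, moved with the deviations of some genes only. The r with this share was 0.82 for Tpm1, 0.66 for Actb and 0.65 for Srf, but 0.020 for Acta2 and -0.44 for Pgm5. The part of library size and of this share in these values was not tested. Actb had a coefficient of variation of 6.88% with IL-1β, against a median of 3.50% for tested genes of like level, and 3.34% with vehicle, against 2.81%.

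**Figure D4:**
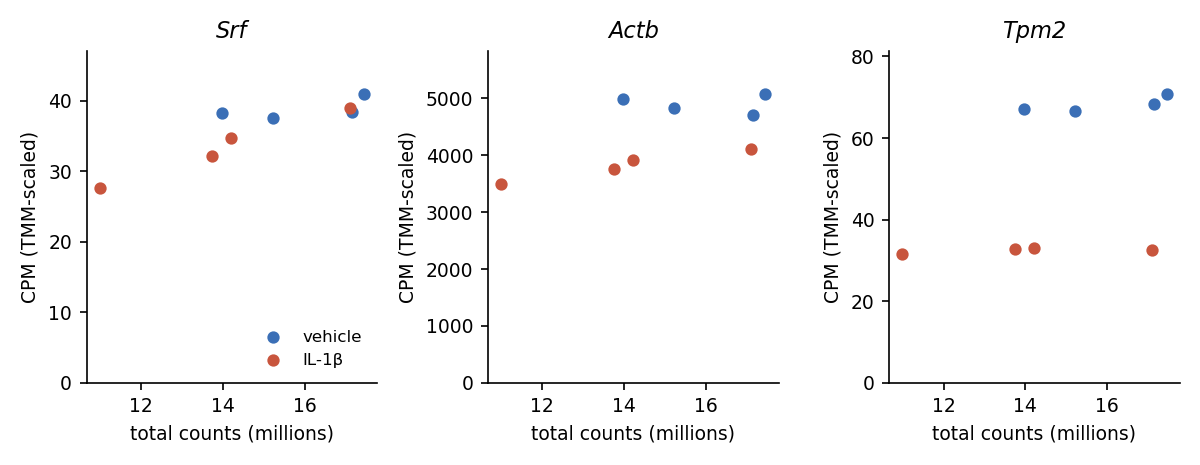
Level of Srf, Actb and Tpm2 (TMM-scaled CPM, axes from 0) against the total counts of each sample (blue, vehicle; red, IL-1β). Among the IL-1β samples Srf goes from 27.7 CPM in the smallest library to 39.0 CPM in the largest, where it lies among the vehicle samples, whereas Tpm2 stays between 31.5 and 33.0 CPM.

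The genes most like the mean within-group deviation of Acta2, Tagln, Cnn1, Myl9, Tpm1 and Tpm2 were Tpst1 (r = 0.99), Adrm1 (0.99), Pym1 (0.98), Igfbp4 (0.98) and H2afz (0.97), each over 8 samples and out of 8754 genes with a mean of at least 10 CPM. These are the highest of many correlations over few samples, and Tagln and Cnn1 enter them with few reads. The averaged genes did not all move together, since Tagln and Myl9 had an r of -0.73 with each other.

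Around the 10 genes, 112 genes of the actin system were examined in 10 lists, and 102 of them passed the filter. They did not share 1 direction. By edgeR's quasi-likelihood test 32 (31.4%) rose and 35 (34.3%) fell at an adjusted p-value under 0.05, where 20.4% of all genes tested rose and 19.8% fell. As DEGs, 3 rose (2.94%) and 4 fell (3.92%). The 102 genes had a median of -0.014 on the log2 scale.

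Among 8 SRF cofactors, 1 rose and 3 fell. The MRTF genes, listed as Mkl1 and Mkl2, had log2 fold changes of -0.0073 (SE 0.041, adjusted p = 0.912) and 0.030 (SE 0.040, adjusted p = 0.598). Myocd, the myocardin of smooth and cardiac muscle, had 49, 27, 28 and 29 reads with vehicle and 12, 9, 12 and 12 reads with IL-1β, and fell by 1.36 on the log2 scale (SE 0.26, adjusted p = 9.01e-05). Fhl2, a LIM-only cofactor, went from 17.5 ± 1.14 to 7.51 ± 0.548 CPM and fell by 1.22 on the log2 scale (SE 0.089, adjusted p = 3.05e-12). Elk3, a ternary complex factor that binds beside SRF, rose by 0.45 (adjusted p = 1.17e-09).

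Of 9 thin filament regulators tested, 2 rose and 5 fell, with a median log2 fold change of -0.25. The tropomyosins Tpm4 and Tpm3 rose by 0.38 (SE 0.035, adjusted p = 3.53e-10) and 0.13 (SE 0.032, adjusted p = 0.00145) on the log2 scale, while the members Tpm1 and Tpm2 were lower. Tpm4 went from 99.98 ± 4.01 to 131 ± 3.95 CPM and Tpm3 from 327 ± 8.53 to 358 ± 8.73 CPM. The calponins Cnn2 and Cnn3, expressed outside smooth muscle, fell by 0.63 (SE 0.079) and 0.40 (SE 0.039), with adjusted p-values of 1.29e-07 and 1.00e-09.

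Of 8 myosin II genes tested, none rose and 4 fell (median -0.16). The largest falls were those of Myh14, a non-muscle heavy chain, by 0.60 (SE 0.087, adjusted p = 1.78e-06), and Myl12a, a regulatory light chain, by 0.41 (SE 0.033, adjusted p = 1.45e-11). Myl12a went from 149 ± 5.04 to 111 ± 2.35 CPM, but 29.6% of its 50-base stretches occur in other genes, nearly all in Myl12b. The formin Diaph1 rose by 0.51 (adjusted p = 3.75e-11) and the myosin phosphatase subunit Ppp1r12b by 0.45 (adjusted p = 5.80e-07), while the formin Diaph3 fell by 0.34 (adjusted p = 0.0181). The call of Diaph3 was lost without IL-1β replicate 4 (adjusted p = 0.083) and without vehicle replicate 4 (adjusted p = 0.0771).

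Among 15 genes of actin monomer binding and turnover, 5 rose (33.3%) and 2 fell (13.3%), with a median log2 fold change of 0.044. Of all wider-list genes tested, 31.4% rose and 34.3% fell. Dstn, the actin-depolymerizing factor destrin, had 2887, 2937, 2359 and 2408 reads with vehicle and 4729, 5748, 6725 and 5919 reads with IL-1β. It rose from 166 ± 5.11 to 415 ± 11.4 CPM, by 1.32 on the log2 scale (SE 0.033, adjusted p = 4.25e-23). Tmsb10, a thymosin that binds actin monomers, rose by 0.45 (adjusted p = 6.27e-09), with 43.5% of its 50-base stretches shared with other genes. The severing protein gelsolin, Gsn, fell by 0.17 (adjusted p = 8.01e-04). The cofilins Cfl1 and Cfl2 had log2 fold changes of 0.044 and -0.035 (adjusted p = 0.367 and 0.596, named after their values were seen). In the Arp2/3 complex, which nucleates branched filaments, 4 of 9 genes rose and 2 fell, all by less than 0.24. Arpc2 rose by 0.23 (adjusted p = 3.69e-06) and Arpc1b by 0.15 (adjusted p = 7.14e-04), the latter with 42.2% of its 50-base stretches shared with other genes.

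The cross-linkers and focal adhesion genes were called in both directions, 9 that rose and 11 that fell of 23. Palld, which encodes the stress fiber scaffold palladin, had 1468, 1461, 1187 and 1360 reads with vehicle and 260, 399, 536 and 455 reads with IL-1β. It fell by 1.54 on the log2 scale (SE 0.057, adjusted p = 4.55e-19). Synpo2, an actin-bundling protein of muscle Z-discs, fell by 1.17 (SE 0.10, adjusted p = 1.51e-10). Pdlim1, which binds α-actinin, rose by 1.01 (SE 0.090, adjusted p = 2.06e-10) and the adhesion adaptor Pxn by 0.35 (SE 0.034, adjusted p = 1.31e-09). Pdlim1 was close to the DEG limit, at 0.97 without IL-1β replicate 1.

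In the dystrophin and utrophin complex, which holds the known partners of Pgm5, 5 of 12 genes rose and 4 fell, with a median log2 fold change of 0.044. Dmd, dystrophin itself, went from 6.59 ± 0.503 to 3.57 ± 0.954 CPM and fell by 0.91 (SE 0.14, adjusted p = 6.38e-06). Sntb1, a syntrophin, had 12, 7, 3 and 6 reads with vehicle and 24, 21, 33 and 28 reads with IL-1β, and rose by 2.10 (SE 0.29, adjusted p = 9.21e-07). The sarcoglycan Sgcd rose by 0.66 (adjusted p = 1.47e-10). Of the 4 other phosphoglucomutase genes, 2 rose and none fell. Pgm1, the main enzyme of glycogen and glucose phosphate exchange, rose from 71.7 ± 2.59 to 124 ± 6.22 CPM, by 0.79 on the log2 scale (SE 0.039, adjusted p = 3.74e-16), and Pgm2l1 rose by 0.43 (SE 0.15, adjusted p = 0.0200). The call of Pgm2l1 was lost without IL-1β replicate 1, IL-1β replicate 4 or vehicle replicate 2 (adjusted p = 0.0604, 0.0502 and 0.0611) and by DESeq2 (adjusted p = 0.0568). Without IL-1β replicate 1, Dmd was at -1.08, past the DEG limit.

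**Figure D5:**
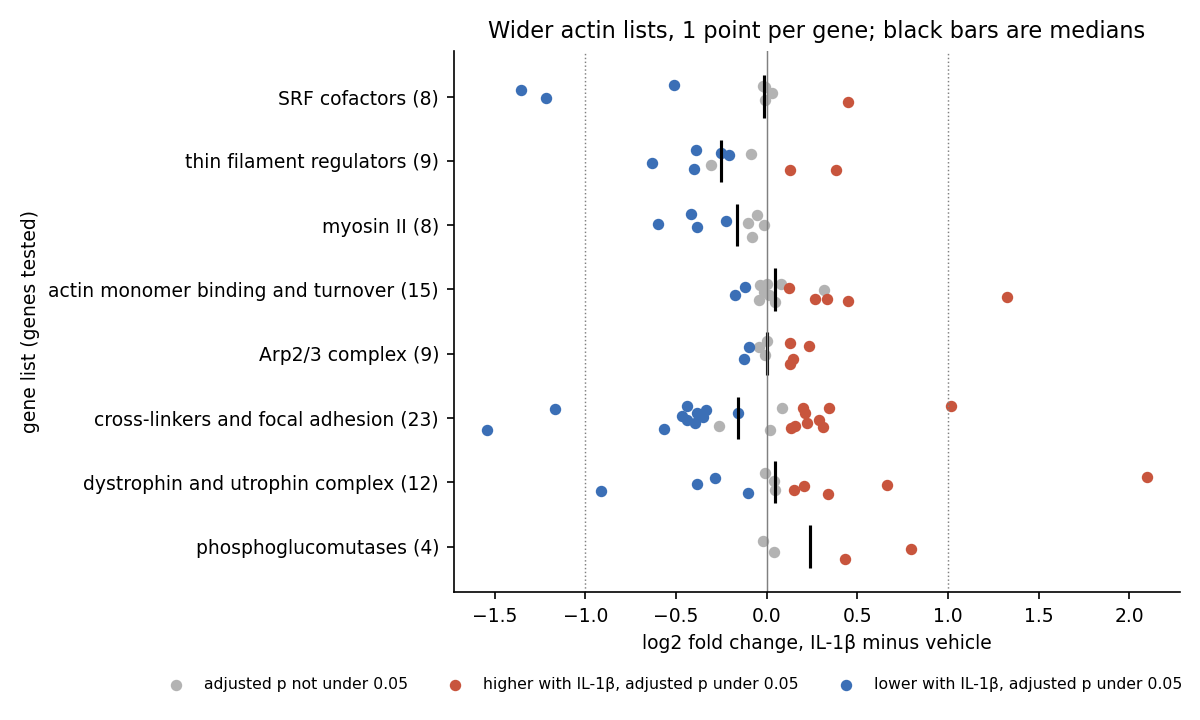
Log2 fold change (IL-1β minus vehicle) of the tested genes in 8 of the wider lists, 1 point per gene, by list with the number tested (red, higher and blue, lower at an adjusted p-value under 0.05 by edgeR; grey, other genes; black bars, list medians; dotted lines at -1 and 1). The medians lie between -0.25 and 0.24, and points far from 0 occur on both sides, from Palld at -1.54 to Sntb1 at 2.10.

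In the promoter windows of the wider lists, an exact CArG box lay in 9 of 94 genes (10 of 129 windows, 7.75%), beside 1.63% of all windows. Of these 9 genes, 5 fell, Fhl2, Cnn2 and Dmd among them, none rose, 2 were tested without an adjusted p-value under 0.05 and 2 did not pass the filter. Of all wider-list genes tested 34.3% fell and 31.4% rose, and of all genes tested 19.8% fell and 20.4% rose. The lists were chosen with earlier results known, and a link between the box and the direction of change was not tested.

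Because Acta2, Myl9, Tagln and Cnn1 are also genes of muscle cells, markers of other cell types were examined. The 8 smooth muscle and pericyte markers summed to 788 to 857 CPM in vehicle samples and 390 to 440 CPM in IL-1β samples, nearly all from Cspg4 (819 ± 29.4 and 409 ± 21.5 CPM). Of the 3 that were tested, Cspg4 and Myocd fell. The defining smooth muscle genes Myh11 and Des were at 0.322 and 0.386 CPM in the vehicle group and at 0.214 and 0.143 CPM in the IL-1β group, and the pericyte genes Rgs5 and Abcc9 were at 0.248 and 0.080 CPM and at 0.137 and 0.033 CPM in the same groups. The 8 skeletal muscle markers, none of which passed the filter, summed to 3.92 to 4.71 CPM in vehicle samples and 1.13 to 1.37 CPM in IL-1β samples. In this list Tnnt3 had 16, 34, 20 and 24 reads with vehicle and 1, 1, 2 and 1 reads with IL-1β, and Tnni2 had 26, 21, 20 and 14 against 3, 3, 0 and 2, whereas the myosin Myh1 was at 0 in all 8 samples and Myh4 had 1 read in all. Mylpf overlapped between the groups, with 9, 7, 11 and 17 reads with vehicle and 5, 5, 9 and 7 reads with IL-1β. Ckm and Actn3, at 0 to 4 reads per sample, overlapped as well. Tnnt3 and Tnni2 moved in the same direction as Acta2 and Myl9, and the part of muscle transcripts in those results was not tested. None of the 6 endothelial or 4 red blood cell markers passed the filter. Of the macrophage and leukocyte markers Cd68 rose and Lyz2 fell. Of the fibroblast and synovial markers Pdgfra and Prg4 rose, Thy1 and Dpt did not pass the filter, and Col1a1 showed no rise. By edgeR's test Col1a1 was at -0.097 on the log2 scale (adjusted p = 0.0761). Prg4 went from 856 ± 21.7 to 2011 ± 47.1 CPM. The paper describes diminished Prg4 in injured control knees by protein staining, which is another measure and setting than mRNA of cultured cells. Whether the mix of cell types changed was not tested.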

How the data were processed

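Total RNA of 8 chondrocyte samples was sequenced. After trimming with cutadapt, the authors aligned reads to mm10 by STAR (version 2.4.2a in the submitters' processing notes) and deposited whole-number counts per gene symbol from featureCounts, with gene lengths in bases (unit: other). The methods also name RUVseq for batch effects. Whether the counts were taken before or after that step, and whether they use strand, is not given in the sources used here. Samples were grouped by their labels.

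Counts were scaled by TMM and tested, two-sided, with edgeR 4.0.16 (quasi-likelihood, in R 4.3.3 with limma 3.58.1), treatment being the single term. The test ran over 14404 genes whose CPM exceeded 1 in 4 or more samples, with Benjamini-Hochberg adjustment over all of them. The code was tested on simulated data. DEGs had a log2 fold change beyond 1 either way and an adjusted p-value under 0.05. TPM values used the deposited lengths. Positions, exon overlaps and shared 50-base stretches come from GENCODE annotation of GRCm38, promoters from RefSeq. Python 3.11.15, numpy 2.4.6, pandas 2.3.3 and matplotlib 3.10.9 were used.

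The 10 genes, the wider lists and the marker lists were chosen with earlier results of these data known. Beyond the 10 genes, the text names by rule the other muscle actins, the MRTF genes and Myocd, in each list the 2 largest rises and the 2 largest falls (adjusted p-value under 0.05, no overlap between groups), and the 5 genes most like the contractile members within groups. Some results of this rule are not reported here. Alternatives were DESeq2 1.42.0, its size factors, total library size, other filters on low counts, a replicate block, 1 factor by RUVs and each sample left out in turn. Totals of 10992355 to 17456063 counts put the floor of 3 counts, under which a level is not told from 0, at 0.173 to 0.270 CPM, which covers counting error only, since reads are not independent molecules.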

Additional observations from a re-analysis of the deposited data

Results flagged for a closer look

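With Dixon's ratio for 4 samples, each group's highest and lowest sample was set against the other 3 for the tested members and the other named genes, 76 comparisons in all. Chance sets apart about 1 group in 20, and 3 were set apart here, none of them a member. Diaph3 in IL-1β replicate 4 was at 5.11 CPM, where the other 3 samples lay between 6.42 and 6.58 CPM. Synpo2 in vehicle replicate 4 was at 11.8 CPM against 13.3 to 13.5 CPM. Palld in vehicle replicate 4 was at 89.4 CPM against 84.4 to 84.7 CPM. The groups of Synpo2 and Palld stayed far apart with these samples included.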

How the results depend on the processing

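The log2 fold changes of the 8 tested members kept their sign under DESeq2, its size factors, total library size, other filters, the block, RUVs and each sample left out, and apart from Myl9 each moved by less than the spread between replicates. Myl9 did not pass the filter of a CPM above 1 in all 8 samples, and leaving out 1 sample in turn gave -3.30 to -2.35, with the end at -3.30 without IL-1β replicate 4. Relative to Actb, chosen after the data were seen, the values were -0.46 (Actg1), -1.67 (Acta2), 0.024 (Tpm1), -0.71 (Tpm2), -2.28 (Myl9), 0.16 (Srf) and -3.44 (Pgm5), which turned the sign of Tpm1 and Srf by the construction of the scale. With the replicate block, 4 wider-list DEGs fell and 3 rose, as without it, and Acta2 was at -2.04. The block is not a pairing, since same-numbered samples had deviations that correlated at -0.070 to 0.042. Of the 7 wider-list DEGs, Pdlim1 was lost without IL-1β replicate 1, where Dmd was gained, Myocd and Sntb1 were not tested with a CPM above 1 in all 8 samples, and Acta1 was gained with no filter on low counts. Pgm2l1 lost its adjusted p-value under 0.05 by DESeq2 and without IL-1β replicate 1, IL-1β replicate 4 or vehicle replicate 2, and Diaph3 without IL-1β replicate 4 or vehicle replicate 4. Medians moved by more than the replicate spread with no filter, to -0.23 for myosin II and -0.075 for the cross-linkers and focal adhesion genes. Over the 8 samples left out in turn, medians were -0.20 to -0.14 for myosin II, -0.17 to -0.13 for cross-linkers, 0.032 to 0.10 for the dystrophin and utrophin complex and 0.20 to 0.31 for phosphoglucomutases. Without division by length, Acta2 made up 0.247% (vehicle) and 0.0804% (IL-1β) of the actin sum. With at most 1 base different, 5 of the 8 windows held a CArG box, against 3. Differences of Tagln, Cnn1, Actc1 and Actg2 could not be shown at these counts.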
